A study of Mus musculus with 3 samples.

Results

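Mesothelial-like cells were described among single cells from the inner wall (intima) of the mouse aortic arch, taken at its lesser curvature. Members were chosen by their own transcripts: a barcode entered with unique molecular identifiers (UMIs, each tagging a captured RNA molecule) of at least 2 of Msln, Upk3b, Upk1b, Lrrn4, Krt19, Krt8, Krt18, Wt1 and Muc16, at least 3 UMIs of these 9 genes in sum, and no UMI of Ptprc, the leukocyte gene for CD45. Only barcodes of 500 or more UMIs and 300 or more genes, with no more than 15% of their UMIs mitochondrial, were considered. By this rule 64 of 8284 kept barcodes (12082 deposited) were members. The mice were wild-type C57BL/6J, 12 to 13 weeks old, of both sexes, with 5 to 10 animals pooled per library. Controls were 2 libraries of untreated mice, and 1 library came from mice given 30 µg of ultrapure lipopolysaccharide (LPS) intravenously 18 h before harvest. LPS is a bacterial outer-membrane glycolipid sensed through Toll-like receptor 4. All groups shared perfusion and dissection with actinomycin D, a transcription blocker, followed by collagenase D and DNase I for a few minutes. The labels do not say whether the libraries were made on separate occasions, and p-values measure only the spread between these libraries, which may be technical.

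Mesothelium is a simple squamous epithelium of mesodermal origin that covers the pleura, pericardium and peritoneum and the organs inside them. Its cells keep keratins 8, 18 and 19 as an epithelial cytoskeleton, carry the surface glycoproteins mesothelin (Msln) and mucin 16 (Muc16) and the uroplakins encoded by Upk3b and Upk1b, and retain the developmental transcription factor Wt1. They make a lubricating hyaluronan-rich coat, complement and retinoic acid, and respond to bacterial products. The intima itself is lined by endothelium, not mesothelium, and the label of the tissue names intimal cells only. The pericardium reflects onto the ascending aorta, and the files do not show from which surface the members came.

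For the LPS comparison, the bases before the transcription start of 4 genes that passed the test in members are shown first, because these are a pair of neighbouring metallothionein genes and a pair of secreted acute-phase genes. Sequences and starts are RefSeq's on GRCm38.p6, and 12 of the 17 genes looked for (the 9 rule genes and 8 genes that passed) had an entry. Each run holds the 250 bases before the start, 5′ to 3′ on the gene's strand. Mt1 lies at chr8:94178839-94179088 on the plus strand, Mt2 at chr8:94172368-94172617 on the plus strand, Lcn2 at chr2:32387740-32387989 on the minus strand and Saa3 at chr7:46715677-46715926 on the minus strand. Capitals mark matches on either strand to TGCGCNC, a form of the metal response element core, or to the C/EBP sequence TTGCNNAA. The form TGCACNC was not searched for or marked.
Mt1: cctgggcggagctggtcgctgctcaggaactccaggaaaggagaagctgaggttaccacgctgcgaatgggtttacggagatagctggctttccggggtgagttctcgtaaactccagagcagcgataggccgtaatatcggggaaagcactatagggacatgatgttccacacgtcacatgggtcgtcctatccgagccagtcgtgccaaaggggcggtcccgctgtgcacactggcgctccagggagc
Mt2: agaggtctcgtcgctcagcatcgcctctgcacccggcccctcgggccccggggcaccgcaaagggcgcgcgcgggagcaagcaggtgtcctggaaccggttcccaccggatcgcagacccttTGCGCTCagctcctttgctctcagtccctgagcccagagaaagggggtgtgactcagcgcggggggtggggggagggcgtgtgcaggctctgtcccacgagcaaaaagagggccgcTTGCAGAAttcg
Lcn2: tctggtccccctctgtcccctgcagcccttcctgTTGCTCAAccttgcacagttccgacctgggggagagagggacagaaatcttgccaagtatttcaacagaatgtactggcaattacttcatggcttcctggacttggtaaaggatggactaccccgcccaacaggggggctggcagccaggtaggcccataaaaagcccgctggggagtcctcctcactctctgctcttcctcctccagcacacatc
Saa3: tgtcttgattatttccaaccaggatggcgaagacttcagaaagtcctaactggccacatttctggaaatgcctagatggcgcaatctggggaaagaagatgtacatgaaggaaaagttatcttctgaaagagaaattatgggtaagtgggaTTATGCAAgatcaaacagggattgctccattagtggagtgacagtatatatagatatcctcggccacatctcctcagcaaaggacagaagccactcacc
Searches also took in the 50 bases after the start, and included an NF-kB consensus by name. Among all 32851 RefSeq promoter windows of 300 bases, 15.4% held TGCGCNC, 10.8% the C/EBP sequence and 8.46% the NF-kB consensus. Mt2 held TGCGCNC at 2 places, starting 128 bases before and 4 bases after the start, and Mt1 held it once, 20 bases after the start. These places do not cover other forms of the metal response element core. The C/EBP sequence began 216 bases before the start of Lcn2, 99 before that of Saa3 and 12 before that of Mt2. None of these 4 windows held the NF-kB consensus, which says only that these letters are not in this window.

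Members numbered 11 of 431 kept barcodes in control 1 (2.55%, exact Clopper-Pearson 95% interval 1.28 to 4.52), 11 of 2697 in control 2 (0.408%, 0.204 to 0.729) and 42 of 5156 in the LPS library (0.815%, 0.588 to 1.10). The LPS share lay between the shares of the controls. Intervals here cover counting error only, and no test of the share was run. Shares depend on which other barcodes were kept, and the smallest deposited barcode held 501, 1117 and 1750 UMIs in these libraries. Between libraries 2, 1 and 6 barcode sequences were shared, and 0 of them were members.

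Depth and content differed between the libraries. The median member held 1096 UMIs in control 1, 1655 in control 2 and 3638.5 in the LPS library, with the deepest at 17711, 3494 and 61702 UMIs. Summed over members there were 45353, 20627 and 375185 UMIs. Gm42418, a gene model that overlaps ribosomal RNA sequence, took a median of 30.0%, 2.95% and 25.3% of member UMIs. In 8, 0 and 27 members it took at least 20%. Of the LPS members, 1 held at least 50% haemoglobin UMIs.

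The number of rule genes and their UMIs varied over 1 order of magnitude and more among members, and these values chose the members, so they are given without a test. In control 1, 2 members carried all 9 rule genes, with 150 and 78 rule UMIs, and held 73.3% of the member UMIs of that library. The most in any control 2 member was 25 rule UMIs, and in the LPS library it was 124. At least 3 rule genes and 5 UMIs, called marker-rich below, were found in 7, 5 and 26 members. The remaining 4, 6 and 16 are called marker-poor. Marker-rich LPS members had a median of 6747 UMIs and 20.6% Gm42418, against 2560 UMIs and 46.6% in marker-poor ones. Just inside the rule, with 2 genes and 3 UMIs, were 0, 0 and 7 barcodes, and just outside, with 2 genes and 2 UMIs, were 3, 6 and 17.

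**Figure D1:**
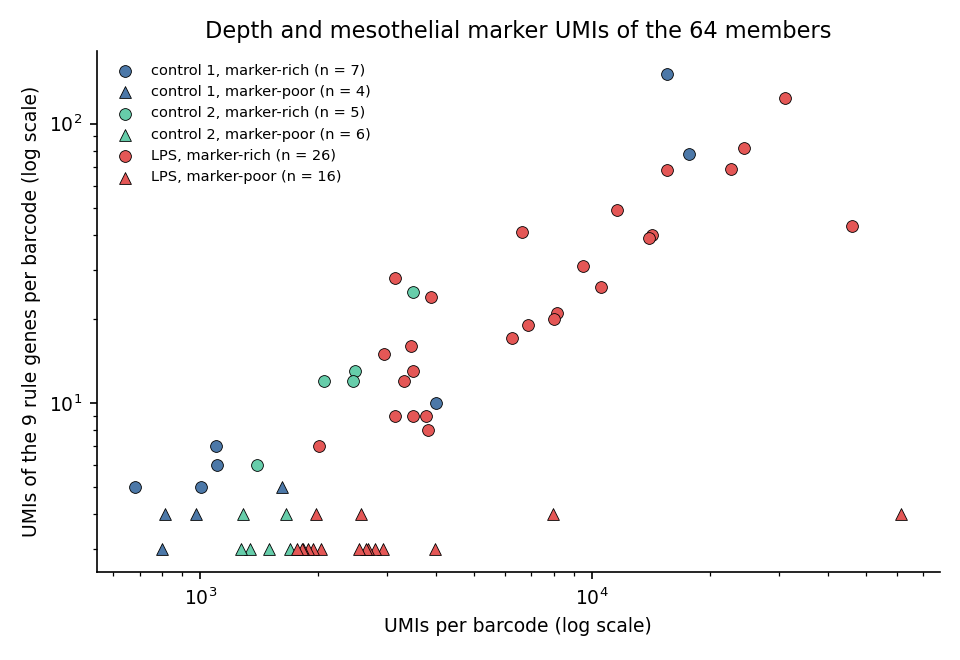
Total UMIs (x axis, log scale) against UMIs of the 9 rule genes (y axis, log scale) for each of the 64 members, by library and by marker-rich or marker-poor status. The rule UMIs of marker-rich LPS members run from 7 to 124, and the LPS member of 61702 UMIs carries 4.

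Of the 6 more restricted rule genes, Upk3b, which encodes a uroplakin, was found in the most members. It had 92 UMIs in 10 of 11 members of control 1, 27 UMIs in 10 of 11 of control 2 and 205 UMIs in 32 of 42 LPS members. Msln had 42, 17 and 198 UMIs, and its level was 926, 824 and 528 UMIs per 1000000 UMIs of the members (CPM). Upk1b, which encodes a tetraspanin uroplakin, had 23, 5 and 101 UMIs. Lrrn4, a leucine-rich repeat membrane protein, had 38, 10 and 34 UMIs, or 838, 485 and 90.6 CPM. Wt1 had 12, 2 and 69 UMIs and Muc16 22, 3 and 49. The UMIs count 3′ ends and were not divided by gene length.

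Keratins, the intermediate filament proteins of simple epithelia, were the shared part of the rule. Krt19 had 24, 10 and 93 UMIs, Krt8 had 8, 9 and 74, and Krt18 had 16, 5 and 68 in the 2 controls and the LPS library. Members with keratin UMIs but none of the 6 restricted genes numbered 1, 0 and 2. One of these 2 LPS members was the deepest of all, with 61702 UMIs (16.4% of all LPS member UMIs), 4 keratin UMIs and 146 UMIs of Pecam1, the endothelial adhesion molecule. That barcode goes against its label, and the UMIs it holds, or values without it, stand beside the results it touches most. All 9 rule genes together made up 6108, 4266 and 2375 CPM of the members, against 20.3, 24.7 and 30.3 CPM of the other kept barcodes. In T-lineage barcodes, which should lack these genes, 3.97%, 8.36% and 13.2% carried any rule UMI, at median depths of 3961, 4206 and 5910.5 UMIs. Of these T-lineage barcodes 0 of 151, 2 of 1650 and 0 of 68 reached 2 rule genes and 3 UMIs, and the counts of 0 allow shares of up to 1.99% and 4.41%.

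**Figure D2:**
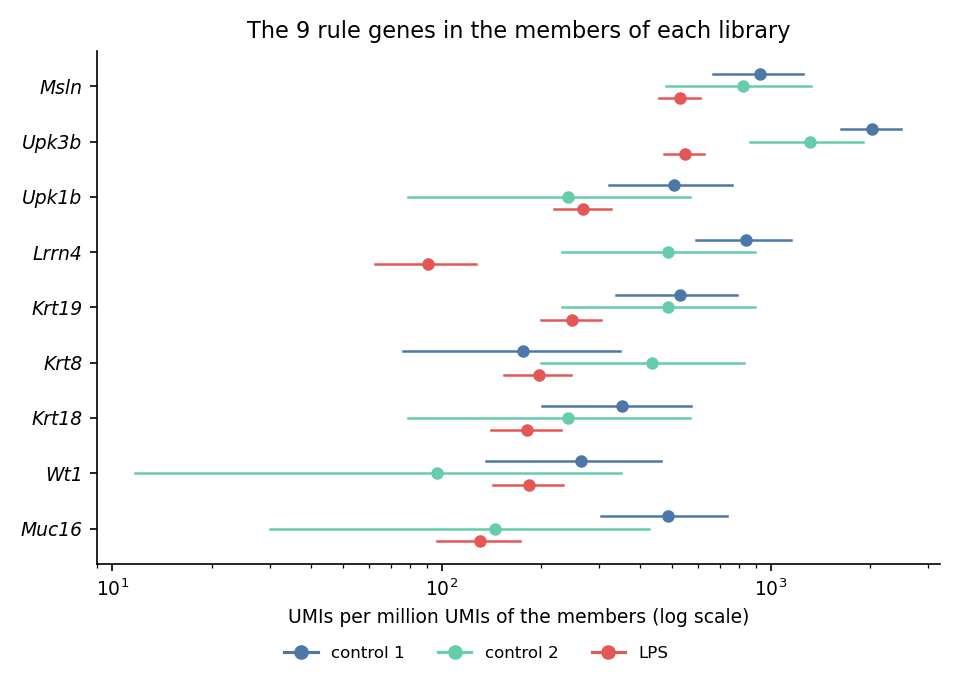
Level of each of the 9 rule genes in the summed members of each library, in CPM on a log axis, with exact Poisson 95% intervals that cover counting error only. Upk3b is at 2029, 1309 and 546 CPM and Lrrn4 at 838, 485 and 90.6 CPM in control 1, control 2 and LPS.

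Markers of other cell types were measured in the same members. All 6 airway and alveolar markers and all B-cell markers were at 0 in every library. Of 10 thymic epithelial markers 1 was detected in each control, with 2 and 1 UMIs, and 2 in LPS members, with 20 UMIs in 7 members (53.3 CPM, against 6.56 in endothelial and 4.18 in fibroblast barcodes), while Foxn1, Psmb11, Epcam and Trp63 were at 0 in every library. T-cell markers summed to 0, 1 and 1 UMIs. Fibroblast markers were present, with 496, 70 and 1048 UMIs in 10, 10 and 41 members. Their sum was 10936, 3394 and 2793 CPM in members, against 19155, 4899 and 3276 CPM in fibroblast barcodes of the same libraries. In LPS members it lay above the 2244 CPM of the 8 mesothelial markers. Most of these were Dcn, the matrix proteoglycan decorin, with 405, 42 and 793 UMIs, while Pdgfra was at 0 in both controls and Dpt and Serpinf1 at 0 in LPS members. By the rules used for comparison, 5, 8 and 31 members also met the fibroblast rule and 0, 3 and 8 the endothelial rule. Smooth muscle markers made up 10569 CPM in control 2 members, all 11 of which carried them, against 243 CPM in control 1 and 416 CPM in LPS members. They were also high in other control 2 barcodes, at 5532 CPM in endothelial, 5670 in fibroblast and 3215 in T-lineage ones. Endothelial markers gave 409 UMIs in LPS members, 336 of them in the deepest barcode, and 198 CPM among marker-rich LPS members. Their part in the results below was not tested beyond the values with and without these barcodes.

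Next, each library's members were set beside the endothelial barcodes (27, 115 and 536) and fibroblast barcodes (36, 285 and 1203) of the same library, chosen by marker rules of the same form. Because the members were selected on expression, this contrast is a description and has no test. In the LPS library 170 of 4657 genes with at least 50 UMIs in a class (3.65%) were at least 4-fold higher in members than in both classes, and 26 (0.558%) were at least 4-fold lower. Of the 170, 7 were rule genes, and 35 reached 50 UMIs in members only and so were read only because they were high there. Control 1 gave 8 of 228 higher (3.51%) and control 2 gave 86 of 1540 (5.58%), with 4 (1.75%) and 5 (0.325%) lower. Of the 170 LPS genes, 111 lay above both classes in control 1 and 133 in control 2, and 49 and 67 did so by at least 4-fold. Over all genes with enough UMIs, the median ratio to the higher class was 0.543 in control 1 and 1.63 in control 2. The median gene of control 2 thus already lay above both classes, so the 133 alone does not show that the LPS pattern recurs there. Endothelial and fibroblast barcodes of the LPS library had median Gm42418 shares of 54.6% and 54.8%, above the 25.3% of members, and the median gene stood at 1.63 times the higher class. Scaled to UMIs without Gm42418, haemoglobin and mitochondrial genes, the split was 65 higher against 133 lower. In control 2 the 5 erythroid markers (haemoglobin genes and Alas2) took 463942 CPM of endothelial and 488510 CPM of fibroblast barcodes, against 970 of members. Such a load lowers the CPM of all other genes in these classes. The control ratios here and below were not rescaled for it, so those of control 2 are raised.

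Of the 20 genes with the highest ratio outside the rule, 15 reached 50 UMIs in members only. Several of the 20 are known from mesothelial or other epithelial surfaces. Igfbp6, a secreted binding protein of insulin-like growth factor 2, was at 1210 CPM in LPS members (454 UMIs), against 12.6 in endothelial and 37.9 in fibroblast barcodes. Its ratio to the higher class was 31.9 in the LPS library, 15.5 in control 1 and 47.9 in control 2. Igfbp5, its relative that binds both insulin-like growth factors, was at 5563 CPM against 123 and 235, a ratio of 23.6, with 4.7 and 12.2 in the controls. Gpm6a, a neuronal and mesothelial membrane glycoprotein, had 48, 15 and 72 UMIs and ratios of 27.5, 49.8 and 29.9. These 3 genes stood above both classes in all 3 libraries.

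Hpgd, the enzyme that inactivates prostaglandins, was at 1090 CPM in LPS members against 12.1 and 17.6, a ratio of 62.1, and at ratios of 6.3 and 23.6 in the controls. Slc39a8, which encodes the zinc importer ZIP8, was at 1119 CPM against 30.8 and 30.7. Slpi, a secreted inhibitor of leukocyte proteases, had 109 UMIs in 12 of 42 LPS members, 72 of them in 1 barcode. Has1, a hyaluronan synthase, had 57 UMIs in 16 LPS members and 1 and 0 UMIs in the controls. Cxadr, an adhesion molecule of epithelial junctions, had 18, 6 and 52 UMIs. Tmem151a, Myrf (a membrane-bound transcription factor), Celf4 (an RNA-binding protein), Dmkn and Sbsn (secreted products of epithelia), Plet1, Pkhd1l1, Zdbf2 and Crip1 had ratios from 22.4 to 71.0.

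Of the 20, 4 genes had at most 1 UMI in each control, Has1 and the 3 that follow. Trem2, a lipid receptor best known from macrophages, had 60 UMIs in 12 LPS members, 26 of them in 1 barcode. Of 7 macrophage markers 5 were detected in LPS members, with 27 UMIs in 18 members (72.0 CPM, against 157 in endothelial and 236 in fibroblast barcodes), and C1qa and Adgre1 were at 0. In the controls 2 and 5 of the 7 were detected, with 3 and 14 UMIs, and their part in the Trem2 value was not tested. Chil1, a secreted chitinase-like protein, had 0, 0 and 114 UMIs, spread over 23 LPS members. Il18r1, a subunit of the interleukin-18 receptor, had 1, 0 and 145 UMIs. In the T-lineage barcodes of the LPS library Trem2 was at 0 and Il18r1 at 28.8 CPM, against 160 and 387 CPM in members. When barcodes with at least 20% Gm42418 were left out of members and of both classes, leaving 15 members, 98 endothelial and 121 fibroblast barcodes, 14 of the 20 genes were still past both filters. The 6 others had fewer than 50 UMIs in members there, with ratios from 12.2 to 48.3. Without members that met the endothelial rule 13 of the 20 and 137 of the 170 were still past both filters, and without those of the endothelial or fibroblast rule, which leaves 9 LPS members, 5 of the 20 and 61 of the 170.

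**Figure D3:**
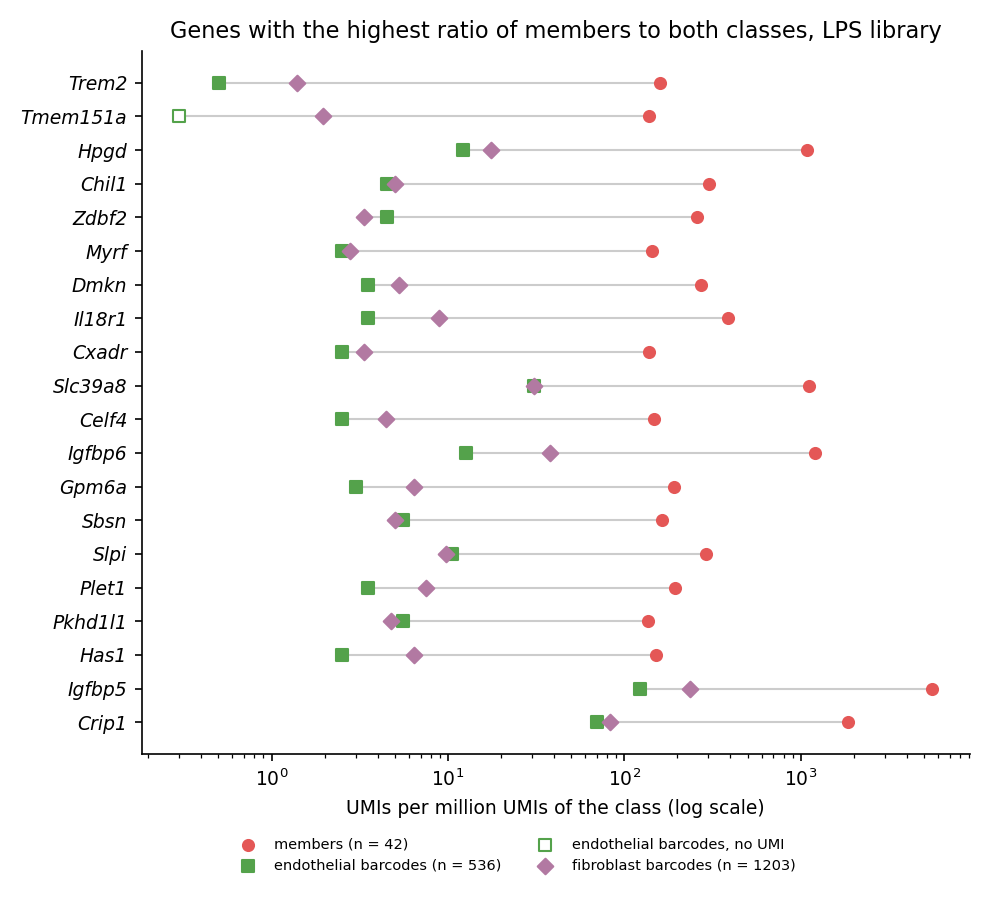
Level of the 20 genes with the highest ratio of members to both classes in the LPS library, in CPM on a log axis, for members, endothelial and fibroblast barcodes. Igfbp5 is at 5563 CPM in members, 123 in endothelial and 235 in fibroblast barcodes, and an open symbol marks a class with no UMI.

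Mesothelial genes outside the rule were also read as a list of 35. Of the 18 with enough UMIs in the LPS library, 13 were at least 4-fold above both classes and 0 were 4-fold below, beside 3.65% of all genes. Of the 13, 3 had 50 UMIs in no class but the members, so they were read only because they were high there, and the count is no support for the label. Besides those named above, C3, the central complement component, was at 5285 CPM against 162 and 655. Aldh1a1, a retinal dehydrogenase, was at 624 CPM against 23.2 and 48.0. Rarres2, the chemoattractant chemerin, had 117, 55 and 183 UMIs, and Pdpn, the mucin-like podoplanin, had 4, 7 and 191. Clu, a secreted chaperone, was at 1053 CPM in LPS members and 936 CPM in endothelial barcodes, with 186 of its 395 member UMIs in the deepest, Pecam1-rich barcode. Its level was 680 CPM among marker-rich LPS members and 654 CPM without the 2 deepest, both below the endothelial one. Calb2 and Cdh1, which encode calretinin and E-cadherin, had 0 UMIs in the members of all 3 libraries.

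Complement genes beyond C3 followed in part. C2, the protease component of the C3 convertase, was at 243 CPM in LPS members against 3.0 and 12.8, and C1s1, a subunit of the first component, at 490 CPM against 19.7 and 59.9. Together with C3 they made 3 of 12 described complement genes at least 4-fold higher, beside 3.65% of all genes, and C1qa, a subunit of the first component made by macrophages, was the 1 that was 4-fold lower. Cfb, which encodes factor B of the alternative pathway, was at 885 CPM against 122 and 311. Serping1, the inhibitor of the first component, was at 1000 CPM against 176 and 383. In the controls, C3 had 308 UMIs in control 1, 264 of them in its 2 deepest members, and 10 in control 2.

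Among single LPS members the spread was wide. Igfbp5 ran from 0 to 254 UMIs per 10000 UMIs of the barcode, with a median of 15.1 over all 42 and 44.6 over the 26 marker-rich members. C3 ran from 0 to 203, with medians of 25.2 and 60.2. At least 1 UMI of C3 was found in 36 of 42 members and of Igfbp5 in 31. Dcn was found in all 26 marker-rich LPS members, at 2.65 to 71.6 UMIs per 10000.

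The remaining lists are counted against the same shares over all genes, 3.65% higher and 0.558% lower. Retinoid handling had Aldh1a1 alone among 5 described genes, and Aldh1a2, a second retinal dehydrogenase, had 8, 1 and 42 UMIs. In the glycocalyx and lubrication list Has1 and Gpc3, a heparan sulphate proteoglycan, passed among 7, and Has1 reached 50 UMIs in members only. Prg4, the joint and serosal lubricant lubricin, was at 450 CPM in LPS members against 305 in fibroblast barcodes. With Gm42418-rich barcodes left out of members and classes the order was reversed, at 442 CPM in members against 515 in fibroblast barcodes. Basement membrane and matrix genes gave 3 of 23 (Fbln1, Efemp1, Timp2). Of simple epithelial cytoskeleton and junction genes 1 of 8 passed, Ezr, which encodes the membrane-cytoskeleton linker ezrin, at 394 CPM against 22.2 and 22.6. MHC class I, MHC class II, guanylate-binding protein, leukocyte adhesion, S1P, LPS sensing, circadian, cell cycle and glycolysis lists gave 0 genes at least 4-fold higher. Fibrinolysis and coagulation gave 2 of 10 higher, immediate-early genes 2 of 16, iron, zinc and metallothionein genes 2 of 11, and type I interferon genes 1 of 29. Chemokines and cytokines gave 1 of 17 higher and 3 lower (Cxcl9, Cxcl12, Ccl5), and acute-phase and LPS feedback genes 1 of 25 higher and 2 lower (Il1r1, Ptx3). The higher acute-phase gene, Slpi, reached 50 UMIs in members only. Il1r1, the receptor of interleukin-1, is also the 1 gene of the LPS sensing list that was lower.

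The question of the LPS comparison was how members of the treated library differed from those of the 2 untreated ones. Sums over the members of each library were tested with edgeR's quasi-likelihood test with Benjamini-Hochberg adjustment at 0.05. Of 1094 genes tested, 12 were higher with LPS (1.10%) and 1 was lower (0.0914%), and 54 higher and 26 lower had an unadjusted p under 0.05. The 12 comprised Lcn2, Saa3, Mt1, Mt2, Cp, Ly6a, Ctla2a, Fkbp5, the predicted gene Gm12840 and 3 haemoglobin genes. Only 1 residual degree of freedom was left, so the spread comes from both controls and the test takes the LPS library to vary as they do. The prior degrees of freedom, the weight edgeR gives to a spread pooled over genes, were infinite in this fit. Each gene was thus tested with the pooled spread, and the small p-values rest on that pooling. Among the 7, 5 and 26 marker-rich members the test called 0 of 1115 genes, with 57 at an unadjusted p under 0.05 and a smallest adjusted p of 0.368. The prior degrees of freedom were 5.58 in that fit, so each gene's own spread counted more than in the main fit. Fewer calls among marker-rich members therefore do not by themselves mean smaller changes. There the log2 fold change was 6.25 for Mt1 and 6.31 for Mt2, against 5.79 and 6.07 for all members, and 4.12 for Hba-a1 against 5.53. The 2 deepest LPS barcodes, of 61702 and 46028 UMIs, held 28.7% of the LPS member UMIs. Without them, in a fit added after the data were seen, 15 genes were higher and 1 lower. In these sums more cells with a transcript and more transcript per cell cannot be told apart.

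Secreted acute-phase proteins led. Lcn2, which encodes the iron-siderophore-binding protein lipocalin 2 (chr2:32384633-32388252, GRCm38), had 0 UMIs in both controls and 1926 in LPS members, in 41 of 42. Its level was 5133 CPM, at least 113-fold higher against a floor of 3 UMIs over both controls (edgeR adjusted p = 8.47e-11). Saa3, a serum amyloid A apolipoprotein made outside the liver, had 0, 0 and 869 UMIs in 34 of 42 LPS members, at least 50.9-fold higher (adjusted p = 1.11e-07). Of its UMIs 369 lay in 1 barcode. Both controls were at 0 for both genes, so the groups did not overlap, as for 622 of all 1094 genes tested, whose LPS level lay outside both controls. Without the 2 deepest LPS barcodes Lcn2 was at 3455 CPM and Saa3 at 1858 CPM, each still past the test (adjusted p = 1.22e-08 and 1.63e-06). Cp, the copper-carrying ferroxidase ceruloplasmin, had 0, 1 and 275 UMIs, a ratio of 48.4 with a counting interval of 8.61 to 1917 (adjusted p = 0.0135), with 116 UMIs in the deepest barcode. Without the 2 deepest LPS barcodes it was at 557 CPM (adjusted p = 0.0237).

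Lcn2 and Saa3 stood at different places among the classes. Lcn2 was at 5133 CPM in members and 5311 CPM in endothelial barcodes of the LPS library, against 1869 in fibroblast barcodes. Of its 1926 member UMIs 496 lay in the deepest, Pecam1-rich barcode, and without the 2 deepest barcodes members were at 3455 CPM. Saa3 was at 2316 CPM in members and 2752 in fibroblast barcodes, against 460 in endothelial ones. The CPM scales are unlike, because both classes held larger Gm42418 shares than members. Their erythroid markers were at 227019 CPM in endothelial and 231084 in fibroblast barcodes, against 10027 in members. The T-lineage barcodes of the LPS library, a rough measure of free RNA, held 348 CPM of Lcn2 and 119 CPM of Saa3. Member levels lay above these for both genes. The T-lineage barcodes were deeper, with a median of 5910.5 UMIs against 3638.5 in members. An equal amount of free RNA would take a smaller share of them, so these values can understate it in members. Single LPS members ran from 0 to 111 UMIs per 10000 for Lcn2, with a median of 34.9, and from 0 to 148 for Saa3, with a median of 4.23. All 26 marker-rich LPS members carried Lcn2, and 21 of them Saa3.

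**Figure D4:**
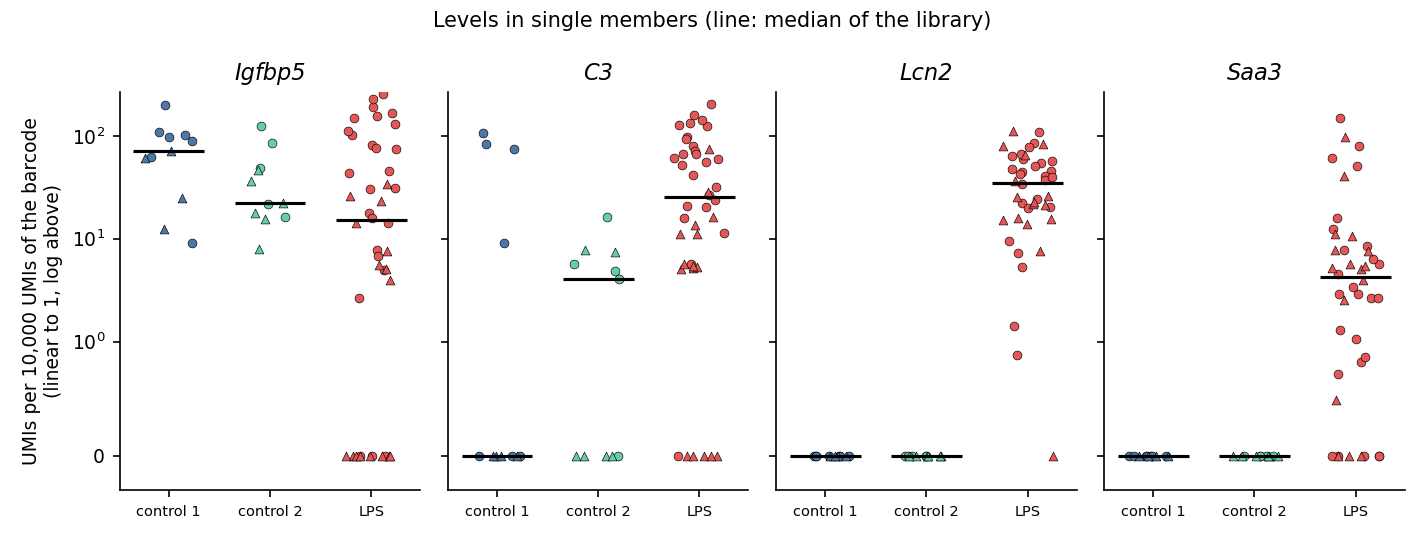
Igfbp5, C3, Lcn2 and Saa3 in each member, in UMIs per 10000 UMIs of the barcode (linear to 1, logarithmic above), by library, with circles for marker-rich and triangles for marker-poor members and a line at the library's median. Lcn2 and Saa3 are at 0 in all 22 control members, while Igfbp5 and C3 occur in all 3 libraries.

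Metallothioneins, small cysteine-rich proteins that bind zinc and copper, formed the next group. Mt1 (chr8:94179082-94180327) had 16, 7 and 5987 UMIs, or 353, 339 and 15958 CPM. Its log2 fold change was 5.79 ± 0.89 (SE, edgeR adjusted p = 1.11e-07). Mt2, its neighbour, had 6, 2 and 2548 UMIs, or 132, 97.0 and 6791 CPM, and a log2 fold change of 6.07 ± 0.97 (adjusted p = 1.11e-07). All 42 LPS members carried Mt1 and 41 carried Mt2. In the endothelial, fibroblast and T-lineage barcodes of the LPS library Mt1 stood at 4016, 4081 and 549 CPM, below the 15958 CPM of members. These levels were not rescaled for the larger Gm42418 and haemoglobin shares of the endothelial and fibroblast barcodes. The 250 bases before these genes and the matches in them are printed above. Of Mt1's UMIs, 2064 lay in 1 marker-rich barcode of 46028 UMIs, which had 0 UMIs of Igfbp5. Without the 2 deepest LPS barcodes Mt1 was at 11796 and Mt2 at 5979 CPM.

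Of the other genes that rose, Ly6a, which encodes the surface protein Sca-1, had 5, 1 and 844 UMIs and a log2 fold change of 4.90 ± 1.08 (adjusted p = 0.000278). Of these, 395 UMIs lay in the deepest barcode, and without endothelial-rule barcodes the log2 fold change was 4.76 (adjusted p = 0.000846). Fkbp5, a chaperone induced by glucocorticoids, had 1, 0 and 221 UMIs, a ratio of 38.9 with a counting interval of 6.90 to 1542 (adjusted p = 0.0234). Its largest number in 1 LPS member was 24 UMIs, and 26 of 42 carried it. Ctla2a, a cysteine protease inhibitor, had 0, 1 and 384 UMIs (adjusted p = 0.00326), 348 of them in the deepest, Pecam1-rich barcode. It was at 47.8 CPM among marker-rich LPS members.

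Haemoglobin genes also passed. Hbb-bs had 9, 12 and 1720 UMIs, 1205 of them in 1 barcode and 404 in another, with an edgeR adjusted p of 0.000867. Hba-a1 had 2, 3 and 1163 UMIs, 830 in 1 barcode, and Hba-a2 1, 2 and 829, 545 in 1 barcode. In the LPS library Hbb-bs stood at 4584 CPM in members, 109255 CPM in endothelial barcodes and 12158 CPM in T-lineage barcodes. Members thus lay below both. Free RNA as the source of the haemoglobin UMIs was not tested.

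Acta2, the smooth muscle actin gene, was the one gene that fell, with 2, 103 and 28 UMIs and a log2 fold change of -4.42 ± 0.92 (edgeR adjusted p = 0.0109). It is named after its values were seen. The LPS level of 74.6 CPM lay between the controls, at 44.1 and 4993 CPM, so the fall rests on control 2. Without control 2 the log2 difference was 0.76, and without control 1 it was -5.42. Smooth muscle markers as a whole were at 10569 CPM in control 2 members, as given above. Acta2 was also high in other control 2 barcodes, at 2851 CPM in endothelial, 2677 in fibroblast and 1532 in T-lineage ones. In the LPS library these classes were at 233, 298 and 121 CPM, so the difference between these libraries is not particular to members.

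**Figure D5:**
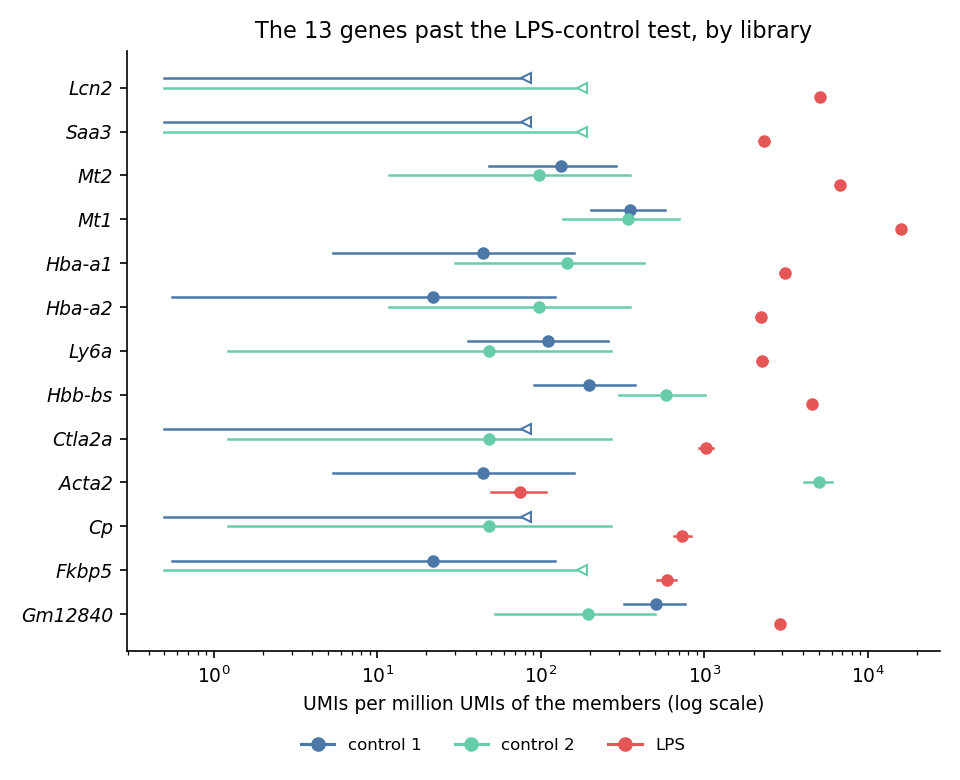
Level of the 13 genes that passed the test, in CPM of the summed members on a log axis, with exact Poisson 95% intervals for counting error only, and open triangles at the upper limit where no UMI was seen. Lcn2 and Saa3 have no UMI in either control, and for Acta2 the LPS level of 74.6 CPM lies between 44.1 and 4993 CPM.

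Lists of related genes were counted in the same test, where the median log2 fold change over all genes was -0.085. Among acute-phase and LPS feedback genes, 5 of 11 tested passed, all higher (Mt1, Mt2, Lcn2, Saa3, Cp), beside 1.10% of all genes, and the median was 4.16. Among iron, zinc and metallothionein genes 4 of 8 passed, and these 4 are also in the first list. Slc39a8 of this list had 6, 2 and 420 UMIs and a log2 fold change of 3.48 ± 1.17, without passing (adjusted p = 0.0947). Without endothelial-rule barcodes its log2 fold change was 4.29 with an adjusted p of 0.00652, and without the 2 deepest LPS barcodes 3.83 with 0.0308. Fth1, the ferritin heavy chain, had 80, 97 and 3906 UMIs (adjusted p = 0.289).

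Interferon-stimulated genes lay on the higher side without passing. Of 11 tested type I interferon genes 0 passed in edgeR, 7 had an unadjusted p under 0.05 (80 of all 1094, 7.31%), 10 had a positive log2 fold change (505 of 1094, 46.2%) and the median was 3.20, or 3.07 with a gene at 0 in both controls set to its bound. Isg15, a ubiquitin-like protein, had 3, 1 and 274 UMIs (log2 3.84 ± 1.34, edgeR adjusted p = 0.101). Without endothelial-rule barcodes, a fit added after the data were seen, 3 of 12 tested interferon genes passed as higher, beside 18 of all 1033 genes. These were Isg15 (adjusted p = 0.0386), Irf7 (0.0428), an interferon regulatory transcription factor, and Rsad2 (0.0458), the antiviral enzyme viperin. Without the 2 deepest LPS barcodes 0 of 10 passed (6 at an unadjusted p under 0.05, beside 65 of all 1075 genes), and Isg15 had an adjusted p of 0.464. Ifitm3, a membrane restriction factor, had 66, 22 and 1791 UMIs (adjusted p = 0.277). Of 4 tested guanylate-binding protein and GTPase genes 0 passed (1 at an unadjusted p under 0.05), with a median of 2.63. Gbp2 had 9, 6 and 311 UMIs, or 198, 291 and 829 CPM.

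Genes that mark the members showed no call. Of 23 tested mesothelial genes outside the rule 0 passed (3 at an unadjusted p under 0.05), with a median log2 fold change of -1.17, and 8 had a positive value. Igfbp5 had a log2 fold change of -0.07 ± 0.85 and C3 of 0.57 ± 0.85, both with an adjusted p of 0.999 in edgeR. None of the 8 tested complement genes passed, with a median of 0.51, and none of the 17 matrix genes, with a median of -0.90. At an unadjusted p under 0.05 these lists held 0 and 1 genes. MHC class II genes, which present antigen, had a median of -2.08 over 4 tested, and circadian genes -2.65 over 5, with 0 calls and 1 gene at an unadjusted p under 0.05 in each. The leukocyte adhesion list, with Selp and Vcam1, had 0 of 5 called, 3 at an unadjusted p under 0.05 and a median of 2.94, and 150 of the 199 LPS UMIs of Selp and 134 of the 201 of Vcam1 lay in the deepest barcode. Among marker-rich LPS members Selp was at 136 and Vcam1 at 220.5 CPM, against 530 and 536 CPM in all LPS members, and without endothelial-rule barcodes the median was 1.18 over 3 tested genes. Genes of the S1P and sphingolipid and the cell cycle lists had too few UMIs for the test, with 0 tested.

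The difference between the LPS response of members and that of the other classes was tested with library as a block. As in the main test, 1 residual degree of freedom was left and LPS was 1 library. Against fibroblast barcodes edgeR called 0 of 1094 genes higher (0.00%) and 0 lower, with 36 at an unadjusted p under 0.05. The smallest adjusted p there was 0.254, shared by Cd34, Ly6a, Hba-a1 and Hba-a2. Cd34, a sialomucin of progenitor and endothelial cells, had a log2 response of 2.34 in members and -1.24 in fibroblast barcodes. Against endothelial barcodes 2 genes responded more in members (0.183%), both of haemoglobin, and 1 less (0.0914%), Gm12840. In the endothelial barcodes of the controls Gm12840 was at 0 and 2.43 CPM, so its difference rests on values near 0. These tests do not show that Lcn2, Saa3, Mt1 or Mt2 responded differently in members, nor that they responded alike.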

How the data were processed

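Droplet single-cell RNA libraries (10x 3' v3) of 2 control pools and 1 LPS pool were used. The authors deposited unnormalized UMI counts of each gene in each barcode. Cell Ranger 3.1, R 4.2.1, Seurat 4.2.0 and the mm10 build are listed per the submitters' processing notes. The barcode selection and the annotation release were not given in the sources used here. Cell annotation by the authors was not used, and no doublet caller was run on these few members.

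Computed here were the members, their UMI sums, CPM (UMIs per 1000000 UMIs of the summed barcodes), exact Poisson and Clopper-Pearson 95% intervals (Python 3.11.15, scipy 1.17.1), and edgeR 4.0.16's quasi-likelihood test (R 4.3.3, TMM, filterByExpr, Benjamini-Hochberg at 0.05), which was run because every library held at least 10 members. It was also run on simulated sums drawn with the same spread for all genes and both groups. That run cannot show how the test behaves where a few barcodes hold much of a sum. DESeq2 1.42.0 was an alternative. The members and gene lists were chosen with earlier results of these data known. Control numbers follow the order of the records.

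Endothelial and fibroblast barcodes needed at least 2 markers, at least 3 UMIs of them, no Ptprc UMI and neither the other rule nor the mesothelial one. T-lineage barcodes needed Ptprc and at least 2 of Cd3d, Cd3e, Cd3g and Trbc2. Named were the 9 rule genes, the 4 highest of each of 22 lists, the 15 highest genes and the 20 highest ratios in LPS members, and up to 12 genes each way past the test. Mitochondrial, ribosomal protein, haemoglobin, Gm and Rik genes, Malat1 and Xist were left out of the last 3 groups. Haemoglobin genes, Gm12840, Acta2 and other list members are named after their values were seen. A depth of 20627 to 375185 UMIs per member sum limits precision. Alternatives changed the barcode filters, the member rule, the scaling, the gene filter, the fold and the tool, and left out each control.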

Additional observations from a re-analysis of the deposited data

Results flagged for a closer look

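The LPS response of 3 genes differed between members and endothelial barcodes of the same libraries, by a test of that difference with library as a block (edgeR). The test had 1 LPS library and 1 residual degree of freedom. Hba-a1 rose more in members by 4.53 on the log2 scale, and Hba-a2 by 4.82. Hba-a1 stood at 44.1, 145 and 3100 CPM in members and at 14446, 78291 and 54585 CPM in endothelial barcodes. Its level was thus lower in members in every library, and its difference rests on 2 and 3 UMIs in the control members. Among marker-rich members 0 genes passed this test as higher, with log2 differences of 2.98 for Hba-a1 and 4.72 for Hba-a2. Most haemoglobin UMIs of LPS members lay in 1 barcode, 830 of 1163 for Hba-a1 and 545 of 829 for Hba-a2. The predicted gene Gm12840 responded less in members, with a log2 difference of -5.47 (adjusted p = 0.0238), or -5.53 for marker-rich members (adjusted p = 0.0299). Its UMIs in members were 23, 4 and 1087, or 507, 194 and 2897 CPM. In endothelial barcodes it stood at 0, 2.43 and 1010 CPM, so the difference rests on endothelial controls near 0. The LPS level itself was higher in members. The share of barcodes rich in Gm42418 was 64.3% of LPS members and 81.7% of LPS endothelial barcodes, and its part in this difference was not tested.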

How the results depend on the processing

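Alternatives marked as added after the data were seen are the endothelial rule alone, both comparison rules and Gm42418-rich barcodes in the test, the 2 deepest LPS members, library size alone, and combined settings. Members fell to 7, 5 and 26 with at least 3 rule genes and 5 UMIs, and to 6, 3 and 9 without barcodes of the endothelial or fibroblast rule. Control 1 held 7 members at 1000 UMIs or more and 3 without Gm42418-rich barcodes. Control 2 held 2 at no more than 10% mitochondrial UMIs, and the LPS library 15 without Gm42418-rich ones. With at least 5 keratin UMIs, keratin-only members numbered 0 in control 1 and 0 in LPS.

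The 12 genes higher with LPS became 0 with marker-rich members, 5 under the rule without keratins, and 5 with marker-rich members scaled without Gm42418, haemoglobin and mitochondrial UMIs (Lcn2, Saa3, Mt2, Ly6a and Slc39a8). They were 18 without endothelial-rule barcodes and 15 without the 2 deepest LPS members. The gene lower became 0 with no filter on low counts, DESeq2, marker-rich members, the rule without keratins and library size only, and 2 without Gm42418-rich barcodes. DESeq2 called 8 higher. With no filter the median log2 fold change moved to 0.85, and with library size only to -0.40, from -0.09. Lcn2 kept its side of the threshold in 10 of 11 alternatives, with adjusted p from 5.28e-11 to 0.368. Mt2 did so in 10 of 11, Saa3 in 9 of 10 and Ly6a in 9 of 10. Gm12840 lost its call in 7 of 11, Fkbp5 in 6 of 10, Cp in 5 of 10 and Mt1 in 2 of 11. Hbb-bs was at -0.56 under the rule without keratins. With 1 library per group there is no test. Leaving out a control gave 6.14 for Ly6a, 4.53 for Gm12840 and -5.42 for Acta2 without control 1, and 0.76 for Acta2 without control 2. Fkbp5 without control 1, and Ctla2a and Cp without control 2, were left with a control at 0 UMIs and get no fold. The causes were not tested.

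The 170 genes at least 4-fold higher in LPS members than in both classes became 70 at 8-fold, 404 at 20 UMIs, and 65 without Gm42418, haemoglobin and mitochondrial UMIs. The 26 lower became 7, 26 and 133 in that order. They became 48 with marker-rich members, 15 without keratins in the rule, 44 without Gm42418-rich members, 2 without barcodes of either comparison rule, and 15 with Gm42418-rich barcodes left out of all classes. Depth limits genes with a few UMIs in the 20627 UMIs of control 2 members. No paired analysis was possible because the labels give the libraries no shared replicate numbers.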
